A study of Mus musculus with 3 samples.

Results

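The hyaluronan genes described here are 8 genes that make, break down or bind hyaluronan, namely Has1, Has2, Has3, Hyal1, Hyal2, Cd44, Tnfaip6 and Vcan, out of 25410 gene symbols in the deposited tables. They were taken by symbol, and the rows of a symbol were summed. Their RNA was measured by RNA-seq in IDG-SW3, a mouse osteocytic cell line, after 24 h with 100 nM parathyroid hormone (PTH) at day 35 of differentiation. The single group holds 3 libraries, which the series describes as biological triplicates, and all of its cells had PTH. Vehicle-treated libraries were not analysed here, so nothing below measures an effect of PTH, and each level is set against a fixed level of 1 RPKM or against another gene of the same library. IDG-SW3 is 1 immortalized line, grown with interferon-gamma before differentiation and then without it on collagen-coated plates in osteogenic medium.

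Hyaluronan is a long, unsulfated glycosaminoglycan. The synthases, of which mammals have Has1, Has2 and Has3, build it at the plasma membrane from UDP-glucuronic acid and UDP-N-acetylglucosamine and extrude it from the cell. Hyaluronidases cut the chain, and proteins with a Link module, such as the receptor Cd44, the secreted protein TSG-6 (gene Tnfaip6) and the large proteoglycan versican (gene Vcan), bind it. Osteoblasts and osteocytes carry CD44 at their surface, and hyaluronan is part of the matrix around bone cells.

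The libraries held 35195518, 37299517 and 45240005 counts in replicates 1, 2 and 3. RPKM here means counts per kilobase of transcript and per 1000000 counts of all rows, and values are mean ± SD with n = 3. Rows at 0 made up 30.3%, 27.6% and 34.5% of the tables in the same order. Of the 9 osteoblast and osteocyte markers checked, 7 were above 1 RPKM, with the summed level between 11536 and 12993 RPKM. The osteocyte genes Dmp1 (77, 115 and 6 counts) and Sost (2, 0 and 0 counts) were not resolved against 1 RPKM. Replicate 3 was the lowest in Dmp1, at 0.0480 RPKM, against 0.792 and 1.12 RPKM in replicates 1 and 2. Among markers of other cell types, Pecam1, Emcn, Plin1 and Myh11, each with several rows, were listed at 0, and Ptprc had 1 count in all. Lyz2 (12.9 ± 1.10 RPKM), Fabp4 (9.72 ± 3.19 RPKM), Comp (49.9 ± 10.9 RPKM) and Acta2 (57.1 ± 5.31 RPKM) were above 1 RPKM. So were Kdr (2.62 ± 0.185 RPKM), Sox9 (4.17 ± 1.17 RPKM) and Adipoq (1.88 ± 1.16 RPKM). Adipoq was not resolved without replicate 3 (edgeR adjusted p = 0.298). The summed marker levels ran from 13.3 to 15.6 RPKM for macrophages and osteoclasts, from 2.86 to 3.27 RPKM for endothelium and from 9.84 to 16.5 RPKM for adipocytes. For chondrocytes they ran from 44.5 to 63.8 RPKM and for smooth muscle from 52.5 to 62.1 RPKM. The part of such cells in any level below was not tested, and in bulk RNA fewer cells of a type and less RNA per cell cannot be told apart.

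Of the 8 hyaluronan genes, 5 were above 1 RPKM (Has2, Tnfaip6, Hyal1, Hyal2 and Vcan), 0 were below and 3 were not resolved (Has1, Has3 and Cd44), by edgeR's quasi-likelihood test with adjustment over 21044 genes and a threshold of 0.05. The same test placed 43.2% of all tested genes above 1 RPKM and 13.5% below. At an unadjusted p under 0.05 the members below were also 0, DESeq2 called 0 below and limma called 2 below (Has1 and Cd44). The median of the 8 genes was 3.63 RPKM, against 0.497 RPKM over the 23080 genes with a known length. Among the 6 members with 1 row, 4 were above, where 45.4% of all tested symbols with 1 row were above.

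**Figure D1:**
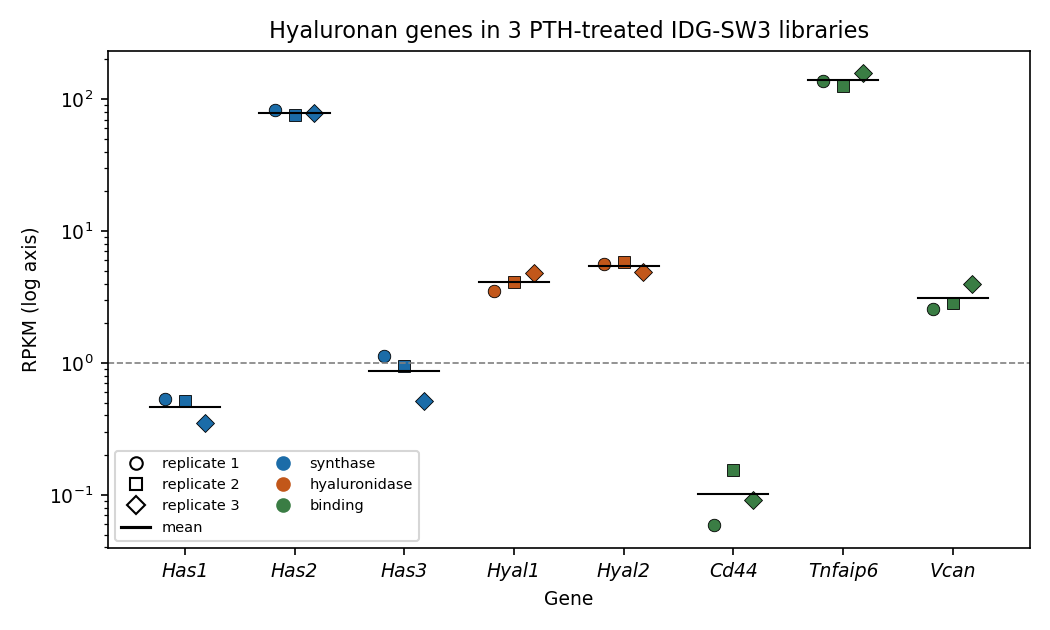
Level of each hyaluronan gene in RPKM on a log axis, with 1 symbol per library, a bar at the mean and a dashed line at 1 RPKM. Tnfaip6 and Has2 stand between 76.1 and 157 RPKM in every library, and the other 6 genes stay under 6 RPKM.

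Nearly all synthase transcripts came from Has2. Has2 (chromosome 15, 56665627 to 56694539, minus strand, GRCm38 as are all gene positions here), the synthase needed for embryonic development in the mouse, had 12388, 12019 and 14941 counts, or 83.1, 76.1 and 77.9 RPKM, in replicates 1, 2 and 3. The 3 libraries lay close together, with a coefficient of variation of 4.60%, against a median of 8.03% for 723 genes with 1 row and a like level (within 1.5-fold). The mean of 79.0 ± 3.63 RPKM stood at percentile 95.9 of all genes and was 6.30 above 1 RPKM on the log2 scale (edgeR adjusted p = 1.03e-223). Such small p-values rest on a spread shared across genes, and their size changed with the genes fitted. With only genes of a mean count of at least 10, the edgeR adjusted p of Has2 was 2.53e-21 at the same log2 level. Such p-values weigh the distance from 1 RPKM against how well these libraries agree.

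Has3 and Has1 were transcribed at low levels. Has3 (chromosome 8, 106870242 to 106884566, plus strand) had 165, 146 and 97 counts, or 1.13, 0.943 and 0.517 RPKM, in replicates 1, 2 and 3, so that only replicate 1 was over 1 RPKM. Its mean of 0.863 ± 0.314 RPKM was not resolved against that level (log2 level −0.26, edgeR adjusted p = 0.431). The result turned on the transcript length taken for Has3, since its log2 level was 1.59 with the shortest annotated transcript (edgeR adjusted p = 4.33e-12) and −0.77 with the longest (edgeR adjusted p = 0.0168). Without replicate 3 the log2 level was 0.05 (edgeR adjusted p = 0.851). Has1 (chromosome 17, 17843323 to 17855205, minus strand) had 39, 40 and 33 counts, or 0.529, 0.512 and 0.348 RPKM, and all 3 libraries were under 1 RPKM. Its mean of 0.463 ± 0.0998 RPKM had a log2 level of −1.14 (edgeR adjusted p = 0.0916), and limma placed it below (limma adjusted p = 0.0172).

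Per kilobase, Has2 made up 98.4 ± 0.475% of the transcripts of the 3 synthases, Has3 1.07 ± 0.362% and Has1 0.575 ± 0.117%. Has2 exceeded Has1 by 157, 149 and 224 times in RPKM in replicates 1, 2 and 3, and Has3 by 73.5, 80.6 and 151 times. With the shortest annotated transcripts the mean log2 ratio of Has2 over Has3 was 4.69, against 6.42 ± 0.49 with the median lengths, and the share of Has3 depends on that length too. Both ratios were largest in replicate 3, where Has1 and Has3 were at their lowest. The 60 coding bases at which the genes are most alike show how far their reads can be told apart. They are given from GENCODE M21 transcripts, 5′ to 3′, with capitals at the 17 positions where the 3 genes are not all the same.
Has2, coding bases 1036 to 1095: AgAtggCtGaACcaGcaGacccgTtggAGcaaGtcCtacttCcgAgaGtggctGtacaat
Has1, coding bases 1126 to 1185: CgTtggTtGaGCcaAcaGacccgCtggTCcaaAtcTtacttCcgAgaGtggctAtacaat
Has3, coding bases 1048 to 1107: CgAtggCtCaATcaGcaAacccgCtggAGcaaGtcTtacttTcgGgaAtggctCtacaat
In this stretch Has1 differed from Has2 at 11 bases and Has3 differed from Has2 at 10. Over the longest annotated transcripts, none of the 2046 stretches of 50 bases in Has1 and none of the 5863 in Has3 occurred in a transcript of another gene. In Has2, 88 of 4188 did, all of them on the opposite strand in Has2os, the antisense RNA that overlaps the start of Has2 on chromosome 15. The files list this RNA as Has2as, with 19, 27 and 69 counts, against 12019 or more for Has2. Over all annotated exons, however, Has3 overlapped Chtf8 on the opposite strand at 352 of 6380 bases. The libraries keep strand, but whether the counting used it is not given in the sources used here.

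**Figure D2:**
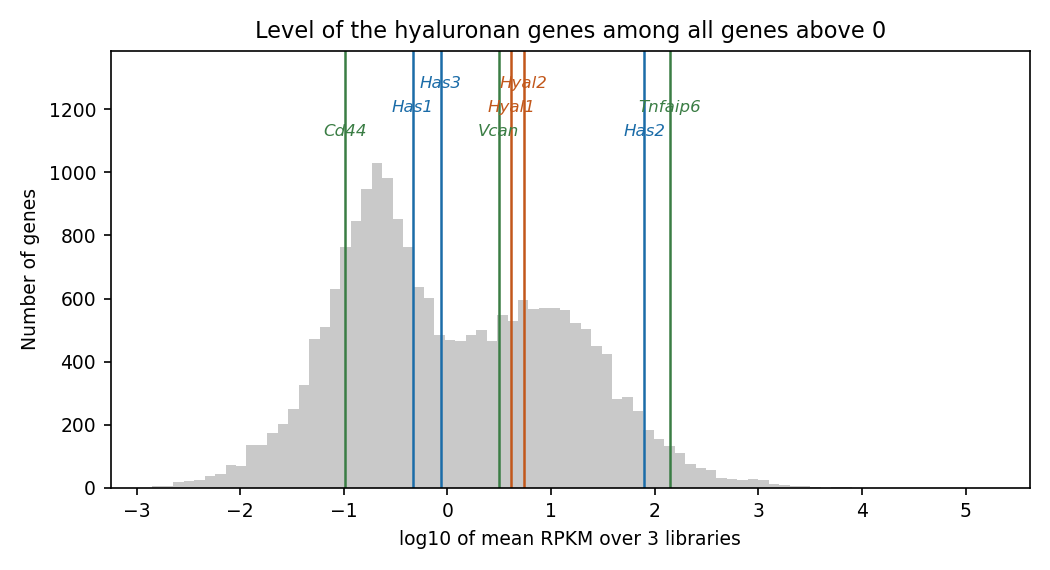
Number of genes by log10 of mean RPKM over the 3 libraries, for genes above 0, with a line at each hyaluronan gene. Has2 and Tnfaip6 lie in the upper tail, at percentiles 95.9 and 97.6 of all genes, whereas Cd44 lies at percentile 23.7.

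Transcripts of both hyaluronidases were present at a moderate level. Hyal2 (chromosome 9, 107567945 to 107572779, plus strand), which encodes a hyaluronidase anchored at the cell surface that cuts long chains into fragments, had 388, 429 and 441 counts, or 5.57, 5.82 and 4.93 RPKM. Its libraries varied by a coefficient of 8.43%, and the mean of 5.44 ± 0.458 RPKM was above 1 RPKM (log2 level 2.43, edgeR adjusted p = 1.73e-50). Hyal1 (chromosome 9, 107576927 to 107581710, plus strand), the lysosomal hyaluronidase, had 249, 307 and 441 counts, or 3.50, 4.08 and 4.83 RPKM, and its highest library stayed just under the lowest of Hyal2. The mean of 4.14 ± 0.664 RPKM was also above 1 RPKM (log2 level 2.07, edgeR adjusted p = 1.02e-33).

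The level of Hyal1 is uncertain because it shares exons with a neighbour. Of the 2965 stretches of 50 bases in its longest annotated transcript, 1872 also occur in transcripts of Naa80, a gene on the same strand, and 72 in those of Hyal3. The files list Naa80 under its older symbol Nat6, with 179, 212 and 140 counts, and how reads in shared exons were assigned is not given. Hyal2 exceeded Hyal1 by 1.59, 1.43 and 1.02 times in RPKM in replicates 1, 2 and 3, so replicate 3 had almost equal levels. With the shortest transcripts the mean log2 ratio of Hyal2 over Hyal1 turned round, to −0.48, against 0.40 ± 0.33 with the median lengths.

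Per kilobase, transcripts of the 3 synthases outnumbered those of Hyal1 and Hyal2 in each library. The summed RPKM of Has1, Has2 and Has3 was 9.33, 7.83 and 8.08 times that of Hyal1 and Hyal2 in replicates 1, 2 and 3. Has2 by itself stood 14.9, 13.1 and 15.8 times above Hyal2. The log2 ratio of that pair, 3.84 ± 0.14, had the smallest SD of the 8 pairs compared. It was 3.48 with the shortest transcripts and 4.41 with the longest. The sums carry the uncertainty of Hyal1 and leave out Cemip, another hyaluronan-degrading gene, at 5.94 ± 0.801 RPKM.

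Tnfaip6 (chromosome 2, 52038009 to 52056686, plus strand) had the highest level of the 8 hyaluronan genes. It encodes TSG-6, a secreted protein that binds hyaluronan and moves heavy chains of inter-alpha-inhibitor onto it, which crosslinks the matrix. Counts were 8251, 7967 and 12129, or 137, 125 and 157 RPKM in replicates 1, 2 and 3. Every library lay above the highest value of Has2 (83.1 RPKM), and replicate 3 was the highest. The mean of 139.6 ± 16.1 RPKM stood at percentile 97.6 of all genes and was 7.14 above 1 RPKM on the log2 scale (edgeR adjusted p = 9.05e-235). Its coefficient of variation was 11.5%, against a median of 7.58% for 448 genes with 1 row and a like level.

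The bases before the RefSeq starts of Tnfaip6 and Has1 are shown because these genes lie at opposite ends of the range of members with 1 row, and because PTH raises cyclic AMP in cells with its receptor, which acts in part through a known promoter element. Of the 8 genes, 6 had an entry in the RefSeq promoter table of GRCm38.p6, and Has2 and Has3 had none. The windows hold the 250 bases before the start, 5′ to 3′ on the gene's strand, and capitals mark matches to the cyclic AMP response element TGACGTCA, to the AP-1 site TGANTCA and to the TATA-like letters TATTTAA, each searched on both strands.
Tnfaip6, chr2:52037863-52038112, plus strand: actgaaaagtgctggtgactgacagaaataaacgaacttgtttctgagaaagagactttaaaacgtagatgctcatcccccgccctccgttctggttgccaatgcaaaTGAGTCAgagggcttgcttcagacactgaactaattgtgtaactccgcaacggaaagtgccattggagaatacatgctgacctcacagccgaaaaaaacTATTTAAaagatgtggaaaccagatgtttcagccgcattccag
Has1, chr17:17855189-17855438, minus strand: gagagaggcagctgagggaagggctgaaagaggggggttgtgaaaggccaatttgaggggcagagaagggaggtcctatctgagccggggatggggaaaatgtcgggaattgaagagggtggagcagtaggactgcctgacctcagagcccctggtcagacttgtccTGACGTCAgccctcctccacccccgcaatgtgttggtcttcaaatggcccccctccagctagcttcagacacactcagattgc
The Has1 window held the full element with its first base at position −83, and 1.55% of the 32851 windows of the table hold it. Because these letters read the same on both strands, the core TGACG, present in 17.8% of windows, matched at −83 and −80 within it. The Tnfaip6 window held the AP-1 letters at −142 (6.75% of windows) and TATTTAA at −43 (4.18% of windows), and no match to TGACGTCA. The TATA box letters TATAAA, present in 12.4% of windows, matched in none of the 6 member windows, that of Tnfaip6 included. GENCODE M21 puts the starts of both genes further upstream, inside the windows shown. The TATTTAA of Tnfaip6 then lies within the transcript, whereas its AP-1 letters and the Has1 element lie before the start under both annotations. Neither the full element nor the AP-1 letters matched in the windows of Hyal1, Hyal2, Cd44 and Vcan. A match is a description of letters and says nothing of binding in these cells.

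Vcan (chromosome 13, 89655312 to 89742509, minus strand), which encodes the hyaluronan-binding proteoglycan versican, had 511, 601 and 1032 counts, or 2.55, 2.83 and 4.00 RPKM in replicates 1, 2 and 3. Replicate 3 was the highest, as for Tnfaip6 and Hyal1, and the coefficient of variation was 24.7%. The mean of 3.12 ± 0.772 RPKM was above 1 RPKM (log2 level 1.68, edgeR adjusted p = 5.36e-35), but DESeq2 gave an adjusted p of 0.0597. Vcan has 5 rows, and all of its counts were in 1 of them. When the counts were averaged over the 5 rows, the log2 level was −0.65 (edgeR adjusted p = 0.0265). With the highest row alone it was 1.68, as with the sum.

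Cd44 (chromosome 2, 102811141 to 102901665, minus strand), the main cell-surface receptor for hyaluronan, was listed at 5, 14 and 10 counts, or 0.0588, 0.155 and 0.0915 RPKM in replicates 1, 2 and 3. All 3 libraries were far under 1 RPKM, but edgeR's test did not resolve the level (0.102 ± 0.0491 RPKM, log2 level −3.29, edgeR adjusted p = 0.110). Limma placed it below (limma adjusted p = 0.000418), and so did edgeR with the longest transcript (adjusted p = 0.0448). Cd44 has 6 rows, of which 1 held every count and the other 5 were at 0 in each library. By counting error alone a count of 0 allows up to 3 counts. Rows with low counts varied more than that between libraries, so this bound may be too low.

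The low values of Cd44 and Vcan are not read as absence of these transcripts. Symbols with several rows were listed low throughout the tables: 31.6% of 3295 such symbols were at 0 in all libraries, against 5.03% of 19785 symbols with 1 row. Their median was 0.0697 RPKM, against 0.691 RPKM for symbols with 1 row. Exactly 1 row was above 0 in 42.8% of symbols with several rows, as in Cd44 and Vcan. Whether reads that match several transcripts of a gene were counted is not given in the sources used here.

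**Figure D3:**
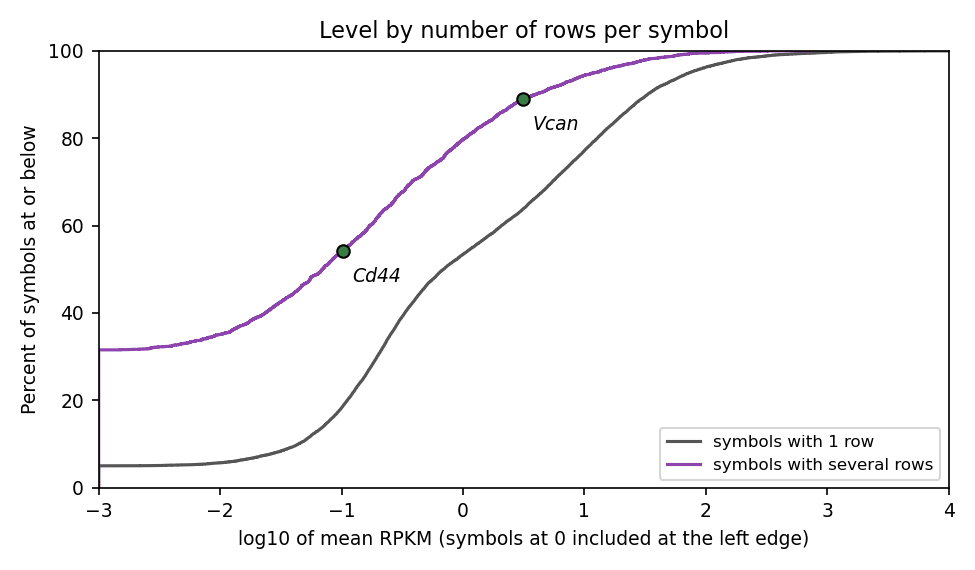
Percent of symbols at or below each level, as log10 of mean RPKM, for symbols with several rows and with 1 row, with Cd44 and Vcan marked on the curve of symbols with several rows. The curve of symbols with several rows starts at 31.6%, and that of symbols with 1 row at 5.03%.

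In order of listed level, with summed rows and median lengths, the 8 hyaluronan genes ran Tnfaip6, Has2, Hyal2, Hyal1, Vcan, Has3, Has1 and Cd44. Cd44 and Vcan have several rows, and such symbols were listed low, so their places are uncertain. Places also depend on the length taken. With the shortest and the longest transcript the log2 level was 3.00 and 0.55 for Vcan, and 3.33 and 1.49 for Hyal1. The widest gap between neighbours in the listed order was between Has2 and Hyal2, whose means differed 14.5-fold. The ranges over libraries overlapped for Hyal1 and Vcan and for Has3 and Has1. Within each library Hyal1 was nonetheless higher than Vcan, and Has3 higher than Has1. Hyal2 and Hyal1 were separated narrowly, by a lowest value of 4.93 RPKM for Hyal2 and a highest of 4.83 RPKM for Hyal1.

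Within libraries, all 8 pairs compared kept 1 direction in the 3 libraries. The log2 ratio of RPKM + 0.1 was 7.15 ± 0.26 for Has2 over Has1, 6.42 ± 0.49 for Has2 over Has3 and 0.73 ± 0.26 for Has3 over Has1. The last of these was 2.46 with the shortest transcripts and 0.29 with the longest. The ratio was −5.46 ± 0.22 for Vcan over Tnfaip6, −9.46 ± 0.45 for Cd44 over Tnfaip6 and 4.00 ± 0.45 for Vcan over Cd44, where the rows described above leave the size uncertain. The exact two-sided sign-flip permutation test gave p = 0.25 for each pair, the smallest that 3 libraries allow, so this test could not pass the threshold for any pair, whatever the size of its ratio. Over pooled libraries Has2 had 174 times the counts of Has1 per kilobase, with an exact 95% binomial interval of 144 to 211 that covers counting error only.

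**Figure D4:**
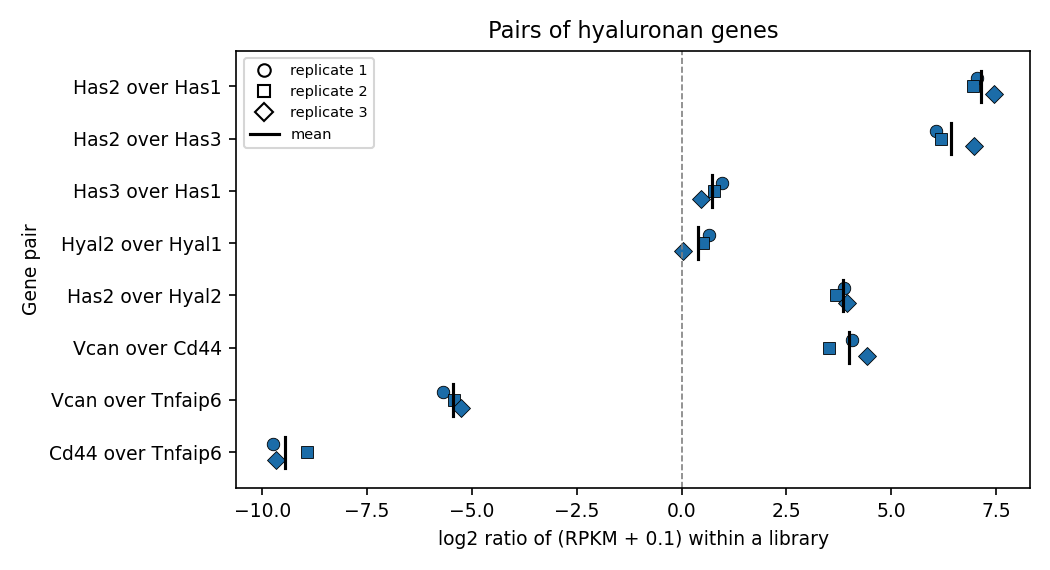
Log2 ratio of RPKM + 0.1 within each library for the 8 gene pairs, with 1 symbol per library and a bar at the mean. Each pair lies on 1 side of 0, and Hyal2 over Hyal1 comes closest to it, at 0.03 in replicate 3.

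Of 10 genes for making, converting or transporting nucleotide sugars, 9 were above 1 RPKM and 0 below, where 43.2% of all tested genes were above and 13.5% below (0 of the list were below at an unadjusted p under 0.05, and 0 with DESeq2 and limma). The median of the list was 35.1 RPKM, against 0.497 RPKM over all genes. DESeq2 called 6 of them above. Gfpt1, which starts the hexosamine pathway to UDP-N-acetylglucosamine, stood at 313 ± 4.63 RPKM. Ugdh, which oxidizes UDP-glucose to UDP-glucuronic acid, stood at 130 ± 9.67 RPKM, and Ugp2, which makes UDP-glucose, at 118 ± 8.61 RPKM. Uap1, the last enzyme on the way to UDP-N-acetylglucosamine, had 79.0 ± 4.48 RPKM. The gene not resolved was Slc35d1, a nucleotide sugar transporter, at 0.914 ± 0.354 RPKM. These sugar nucleotides also serve other glycans.

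Among 11 other genes listed for hyaluronan breakdown, 5 were above 1 RPKM, 2 below, 3 not resolved and 1 listed at 0, with a median of 0.599 RPKM. The share above is near the 43.2% of all tested genes, of which 13.5% were below. Cemip, listed under the older symbol 9930013L23Rik and coding for a hyaluronan-degrading protein unrelated to the hyaluronidases, had 1256, 1686 and 2075 counts. Its level was 5.94 ± 0.801 RPKM, beside 5.44 ± 0.458 RPKM for Hyal2. The lysosomal enzymes that trim the fragments were also above, with Gusb at 16.4 ± 0.0294 RPKM and Hexa at 8.76 ± 2.52 RPKM. Hgsnat, which acts on heparan sulfate, stood at 18.8 ± 0.536 RPKM. It is counted among the 5 above, so the counts are not of hyaluronan breakdown alone. Hyal4, a further gene named as a hyaluronidase, stood at 0.219 ± 0.119 RPKM and was called below. Cemip2 (listed as Tmem2, 2 rows) stood at 0.0520 ± 0.0454 RPKM and was below too. The count below was 1 without replicate 1, 0 without replicate 2 and 1 without replicate 3, and DESeq2 called 0 below. Spam1, the sperm hyaluronidase, was listed at 0 in its 2 rows.

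Of 13 other receptors and binders, 7 were above, 4 below and 2 not resolved, with a median of 1.86 RPKM. Over all tested genes 43.2% were above and 13.5% below. Layn, which encodes the membrane receptor layilin, had 37.3, 38.8 and 28.8 RPKM in replicates 1, 2 and 3. The innate immune receptors Tlr4 and Tlr2, which hyaluronan fragments have been reported to engage, stood at 26.6 ± 3.33 and 14.4 ± 0.634 RPKM, and the hyaluronan-binding mitochondrial protein gene C1qbp at 13.0 ± 1.69 RPKM. The receptors of lymphatic and sinusoidal endothelium were low, with Lyve1 at 0.237 ± 0.189, Stab1 at 0.165 ± 0.0487 and Stab2 at 0.112 ± 0.0929 RPKM, all called below, as was Impg2 at 0.624 ± 0.139 RPKM. Of the 5 endothelial markers, Kdr was above 1 RPKM (2.62 ± 0.185 RPKM), 2 were below and 2 (Pecam1 and Emcn) were listed at 0. Of the 13 receptors and binders, 2 were below without replicate 2, and DESeq2 called 0 of them below.

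Of 7 link proteins and lecticans other than versican, 0 were above, 4 below and 3 not resolved, with a median of 0.341 RPKM, where 43.2% of all tested genes were above and 13.5% below. The count above was also 0 at an unadjusted p under 0.05, with DESeq2 and with limma. Hapln1, the cartilage link protein, had 152, 205 and 294 counts and stood at 0.951 ± 0.191 RPKM, not resolved, and Hapln3 at 0.341 ± 0.210 RPKM, not resolved either. Those called below were Acan (aggrecan, 0.687 ± 0.0818 RPKM), Hapln4 (0.579 ± 0.0619 RPKM), Bcan (0.235, 0.0683 and 0.0563 RPKM in replicates 1, 2 and 3, 2 rows) and Ncan (0.0804 ± 0.0459 RPKM). Of the 5 chondrocyte markers, which include Acan, Comp (49.9 ± 10.9 RPKM) and Sox9 (4.17 ± 1.17 RPKM) were above 1 RPKM. Col2a1 (0.118 ± 0.0610 RPKM) was below and Matn1 (0.0728 ± 0.0544 RPKM) was not resolved. Of the 7 link proteins and lecticans, 1 was below without replicate 1, 1 without replicate 2 and 3 without replicate 3.

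TSG-6 works with a small set of partners, and of the 7 listed 1 was above 1 RPKM, 1 below, 4 not resolved and 1 (Itih4) at 0, while limma called 4 below and DESeq2 0. Over all tested genes the shares were 43.2% above and 13.5% below, and the median of the 7 was 0.290 RPKM. Ptx3, which encodes the pentraxin that joins TSG-6 and hyaluronan in the matrix around the mouse oocyte, had 13163, 12876 and 12847 counts, a level of 176 ± 24.2 RPKM. The heavy chains that TSG-6 transfers come from Itih genes, which the liver expresses strongly. Itih2 stood at 1.15 ± 0.203 RPKM and was not resolved, and Itih5 at 0.508 ± 0.0782 RPKM and was below. Ambp, which encodes the light chain bikunin, had 0, 18 and 28 counts, and was not resolved.

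The list of versican-cleaving proteases and versican partners had 7 of 12 genes above, 3 below, 1 not resolved and 1 at 0, with a median of 11.4 RPKM, beside 43.2% above and 13.5% below among all tested genes. Adamts1, a protease that cuts versican, stood at 201 ± 8.20 RPKM, above the listed level of Vcan itself in every library. Vcan has several rows, and such symbols were listed low, so the size of this difference is uncertain. The related Adamts4 and Adamts5 stood at 20.4 ± 0.843 and 15.1 ± 1.55 RPKM. Itgb1, an integrin subunit with many ligands, was the highest of the list at 652 ± 39.9 RPKM. Called below were Fbln2 (0.519 ± 0.0643 RPKM, 2 rows), Adamts20 (0.337 ± 0.0654 RPKM, 3 rows) and Tnr (0.182 ± 0.0968 RPKM). Fbln2 was not resolved without replicate 1 or replicate 2 (edgeR adjusted p = 0.0560 and 0.0742), and DESeq2 called 0 of the list below.

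**Figure D5:**
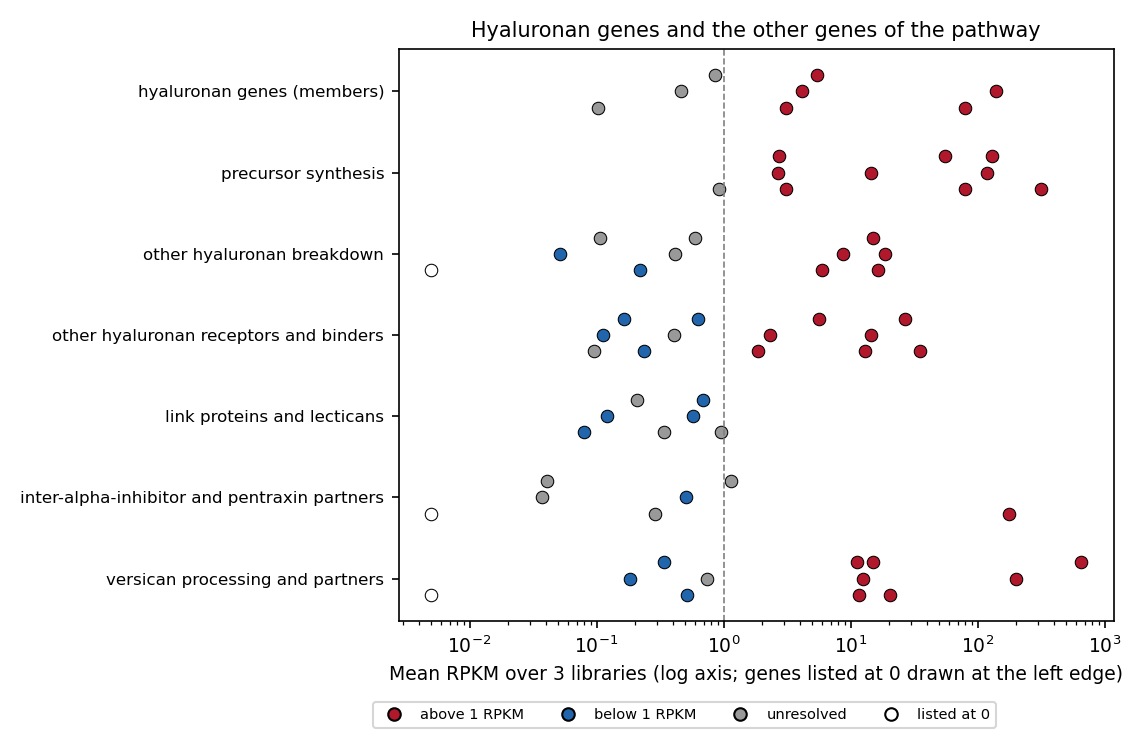
Mean RPKM over 3 libraries, on a log axis, of the 8 hyaluronan genes and of the genes in 6 lists of the pathway, coloured by the call against 1 RPKM (dashed line). Of the nucleotide sugar genes 9 of 10 are above the line, and of the link proteins and lecticans 0 of 7.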

How the data were processed

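Values are whole-number counts per transcript row that the authors deposited, 1 table per library, although the tables are titled RPKM; TopHat and build mm9 are named in the submitters' processing notes, while no counting tool or annotation is named in the labels. Totals ranged from 35195518 to 45240005. Rows with a mean of 20 to 200 counts had a variance between libraries 8.76 times the mean (median), so counting intervals are too narrow. Rows were summed per symbol, and 23080 of 25410 symbols had a median transcript length in GENCODE M21 (GRCm38), 2240 of them through RefSeq synonyms. edgeR 4.0.16 compared each gene's level with 1 RPKM, two-sided (quasi-likelihood F test, trended dispersion, robust, expected count at 1 RPKM as offset, Poisson bound on p) in R 4.3.3, with Benjamini-Hochberg adjustment, over genes with a count. The method was also run on simulated data with a single dispersion for all genes, so that run does not cover genes with a wider spread. Alternatives used limma 3.58.1, DESeq2 1.42.0, TMM scaling, other lengths, row rules, filters and pseudocounts, and left out each library. The p-values set each gene's distance from 1 RPKM against the spread between these 3 libraries only. Named genes are the 8 members, the 4 highest and up to 4 genes called below of each list, the 2 nearest profiles of each member with a mean of at least 1 RPKM. Cemip, overlapping genes, single members of a count, the promoter windows and the marker genes printed were chosen after their values were seen. Members and lists were chosen with earlier results of these data known. No batch is labelled. Some listed genes are not reported here.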

Additional observations from a re-analysis of the deposited data

How the results depend on the processing

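Of 95 recomputed member levels, 86 kept their direction and their side of the threshold. Those of Has2, Tnfaip6, Hyal1 and Hyal2 did so under every alternative run, but some runs could not change a log2 level. The row rules cannot change it for the 6 members with 1 row. Other lengths cannot change it for Has1, Has2 and Tnfaip6, which have a single annotated length. The 86 levels, and the 48 ratios given below, include such unchanged values. The log2 level of Has3 turned positive with the shortest transcript (1.59), against a level of 0.5 RPKM (0.74) and without replicate 3 (0.048, with a range of −0.50 to 0.048 over the libraries left out), and that of Vcan turned negative with the mean over rows (−0.65). The log2 ratio of Hyal2 over Hyal1 became −0.48 with the shortest transcripts. Members below 1 RPKM numbered 2 with limma, 1 with the mean over rows and 2 with the longest transcript, against 0 in the analysis as reported. Over all genes, 2831 were below 1 RPKM, which became 268 with DESeq2, 9878 with limma, 475 against 0.5 RPKM and 917 to 2570 with 1 library left out (1229 without replicate 1, 917 without replicate 2), while the count above ranged from 7475 to 10170. The causes were not tested, except that a lower level leaves fewer genes under it. The runs with 1 library left out all held the same number of libraries, yet their counts below differed with the library left out. Within each alternative run the 3 libraries gave each pair 1 sign, but of 72 recomputed mean log2 ratios 48 moved by less than 1 SD, 23 by more and 1, that of Hyal2 over Hyal1, changed sign. No paired analysis was possible because the 3 libraries form a single group.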

Other observations

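The genes with 1 row whose log2(RPKM + 0.1) over the 3 libraries lay nearest to a hyaluronan gene, by Euclidean distance, were Gna13 (0.0309) and Hdgf (0.0324) for Has2. For Tnfaip6 they were Rab18 (0.0609) and Sumf1 (0.0709), and for Hyal2 Lrrc47 (0.0383) and Zw10 (0.0394). For Hyal1 they were Ebf1 (0.0887) and Zc3h12c (0.0974), and for Vcan Gm5595 (0.0731) and Prex1 (0.0770). With 3 libraries of 1 group this distance reflects level more than pattern.

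The GC box letters GGGCGG, present in 32.7% of the 32851 RefSeq windows on either strand, matched in the windows of Tnfaip6, Hyal2, Hyal1 and Vcan. The letters CCAAT, present in 33.8% of windows, matched in those of Tnfaip6, Hyal1, Vcan and Has1. Cd44 had no match to any of the 7 motifs searched.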
